A study of Mus musculus with 556 samples.

Results

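The genes described here are Sfmbt2, Jade1, Gab1, Smoc1 and Slc38a4, 5 mouse genes imprinted by histone H3 lysine 27 trimethylation (H3K27me3) that the embryo inherits from the oocyte. Their lamina contact was read from the 100 kb bins between gene start and gene end, and from the 5 bins on each side. This gave 11 gene bins and 50 flanking bins, 61 of the 24022 autosomal bins with values, and 5 of the 20531 protein-coding autosomal genes measured in the same way. The rule that selects them uses gene names and positions and no measured value, and the genes were picked with earlier results of these data known. Most known imprinted genes are marked by DNA methylation inherited from a germ cell. In these genes Polycomb repressive complex 2 places H3K27me3 on the chromatin of the growing oocyte, the mark persists on the maternal allele after fertilization, and the early embryo expresses the paternal allele. Some of these genes keep the paternal bias in the placenta and other extraembryonic tissues.

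The study mapped contacts with the nuclear lamina, the protein layer under the inner nuclear membrane, by single-cell DamID. The bacterial enzyme Dam, which methylates adenine, is tethered to lamin B1, and only DNA carrying its methyl mark is amplified. Dam alone, which methylates accessible DNA wherever it is, served as the control. For oocytes, whole zygotes, embryos and the pronuclei with Kdm5b the labels describe injected mRNA for Dam or the fusion, with an auxin-inducible degron, and 6 to 8 h without auxin before collection.

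The paternal and the maternal pronucleus are the separate nuclei that hold the genome from the sperm and from the oocyte in the zygote. Per the labels they were told apart by size and by position relative to the second polar body, and 1 pronucleus was taken per zygote. Pronuclei with Dam-lamin B1 alone numbered 15 paternal and 10 maternal. With mRNA for wild-type Kdm5b, a demethylase of histone H3 lysine 4, they numbered 19 and 19, and with mutant Kdm5b 6 and 13. Kdm5b mRNA was given at 2 µg/µl, 18 h after hCG, and auxin was removed at 21 h. The labels do not say what the Kdm5b mutation changes. The strain label of oocytes and pronuclei is C57BL/6, while the protocol names F1 females of a CBA by C57BL/6J cross. All pronucleus groups carry the Dam-lamin B1 fusion, and no pronuclei with Dam alone were analysed here. Whole cells with Dam-lamin B1 were 56 oocytes, 19 zygotes, 47 cells from the 2-cell and 41 from the 8-cell stage, and 10 embryonic stem (ES) cells. Dam alone was used in 43 oocytes, 46 zygotes, 45 cells from the 2-cell and 4 from the 8-cell stage. Whole zygotes with Dam-lamin B1 also received wild-type (14) or mutant (9) Kdm5b. Whole zygotes and embryos came from C57BL/6 females and CAST/EiJ males, and ES cells from 129/Sv females and CAST/EiJ males. Dam-lamin B1 mRNA was given at 5 ng/µl to oocytes, zygotes and the Kdm5b groups, at 10 ng/µl for 2-cell and at 20 ng/µl for 8-cell embryos. Dam mRNA was given at 20 ng/µl to oocytes and zygotes and at 40 ng/µl to later embryos. The labels give no dose and no time without auxin for pronuclei without Kdm5b or for ES cells. Because doses, crosses and culture differ between stages, levels of different stages are set side by side below without a test. The SD beside a stage mean is the spread of single cells, not the uncertainty of the mean.

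Each value is the number of observed reads over the number expected (OE) in 1 bin of 1 cell, so that an OE of 1 means equal numbers. The term contact is used below for a gene-bin mean of at least 1. Depth recovered from the ratios ran from 23561 to 1090941 reads per cell with a median of 70436. Paternal pronuclei were deeper than maternal ones in every Kdm5b condition: the median was 144947 against 83395 reads without Kdm5b, 103839 against 52535 with mutant and 104944 against 74900 with wild-type Kdm5b. In the maternal groups the gene bins of 1 member held a median of 0.5 to 5 reads per cell, so a value of 0 there is a lack of reads at this depth. The same holds for oocytes with Dam-lamin B1, where that median ran from 0 (Smoc1) to 3 (Jade1) reads. A mean difference is given on the log2(OE + 0.25) scale, which understates differences between low values. It was tested with limma, 2-sided, and called at a Benjamini-Hochberg adjusted p below 0.05 over all genes or all bins. Since no label gives the mother, litter or day of a cell, the p-values measure only the spread between these cells.

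Dam methylates the adenine of GATC, so the number of GATC sites limits where contact can be read. GATC reads the same on both strands. The promoters below run from 250 bases before to 50 bases after an annotated gene start (RefSeq, GRCm38.p6). For Sfmbt2 that start lies some bases inside the gene start given further below. These promoters are shown because they hold the fewest and the most GATC sites of the 4 promoters matched. Capitals mark GATC. Sfmbt2 is at chr2:10370201-10370500 on the plus strand and Slc38a4 at chr15:97055907-97056206 on the minus strand.
Sfmbt2: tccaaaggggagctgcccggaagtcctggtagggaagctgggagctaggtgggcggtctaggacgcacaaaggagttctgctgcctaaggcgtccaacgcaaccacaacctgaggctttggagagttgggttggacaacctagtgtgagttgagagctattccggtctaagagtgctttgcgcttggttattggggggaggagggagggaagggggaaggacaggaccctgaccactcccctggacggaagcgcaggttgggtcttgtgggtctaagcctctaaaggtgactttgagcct
Slc38a4: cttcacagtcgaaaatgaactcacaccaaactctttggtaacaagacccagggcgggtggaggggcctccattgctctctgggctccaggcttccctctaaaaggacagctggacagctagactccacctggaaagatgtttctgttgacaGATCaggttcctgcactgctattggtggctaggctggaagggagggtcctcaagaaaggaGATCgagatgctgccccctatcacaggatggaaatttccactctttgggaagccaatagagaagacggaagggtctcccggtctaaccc
The Sfmbt2 promoter held 0 GATC sites and the Slc38a4 promoter 2. Those of Gab1 (chr8:80880470-80880769, minus strand) and Jade1 (chr3:41555484-41555783, plus strand) held 1 each. So 3 of the 4 promoters matched had GATC, beside 12970 of 27025 mouse promoters of the same length (48.0%). Smoc1 was not matched. A promoter is a small piece of a 100 kb bin, and the OE of a bin rests on the sites of the whole bin.

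In build mm10, Sfmbt2 covers chromosome 2 from 10370440 to 10595253 in 3 bins and Jade1 covers chromosome 3 from 41555734 to 41616864 in 2 bins. Gab1 lies on chromosome 8 from 80764431 to 80880519, Smoc1 on chromosome 12 from 81026808 to 81186414 and Slc38a4 on chromosome 15 from 96994816 to 97055956, each in 2 bins. The gene bins of Gab1 also hold Smarca5, the second bin of Smoc1 holds Slc8a3 and the second bin of Jade1 holds Sclt1, so contact of these neighbours is read together with the member. The authors also deposited lists of lamina-associated domains (LADs) in the blastocyst: an ICM list from its inner cell mass and a TE list from its outer layer, the trophectoderm. A bin was put in a list where at least 50% of it was covered. Of the 61 member bins 41 lay in neither list, 9 in both, 8 in the TE list only and 3 in the ICM list only. Over all bins 32% lay in neither and 50.3% in both. All bins of Sfmbt2 and Slc38a4 lay in neither list. The gene bins of Gab1 were ICM LADs only, those of Smoc1 lay in neither, and the start bin of Jade1 lay in neither while its second bin was a TE LAD only.

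With wild-type Kdm5b all 5 genes had a higher Dam-lamin B1 OE in the paternal than in the maternal pronucleus. The differences ran from 0.93 to 1.30 on the log2 scale, and 5 of 5 genes were called higher by limma, where 12.9% of all genes tested were. Over all genes the paternal log2 mean was the higher for 73.3% with wild-type Kdm5b, 57.9% without Kdm5b and 71.4% with the mutant. Without Kdm5b and with mutant Kdm5b the paternal log2 mean was the higher for 5 of 5 members. Of these, Jade1 with the mutant had a lower mean OE in paternal than in maternal pronuclei, 0.724 against 0.882. In either condition 0 of 5 members were called. The background was low there too, with 0.254% of all genes called higher without Kdm5b and 0.142% with the mutant. At an unadjusted p below 0.05 limma had 2 of 5 genes without Kdm5b (13.0% of all genes). With the mutant it had 4 of 5 (11.9% of all genes). Permutation tests of the mean OE called 0 of 5 in both. Of all genes they called 12 higher without Kdm5b and 80 higher with the mutant. The median difference of the members was 0.60 without Kdm5b, 1.05 with mutant and 1.15 with wild-type Kdm5b. That of all genes was 0.10, 0.33 and 0.27. With wild-type Kdm5b the paternal group had a mean OE of 1.02 in bins of both LAD lists and 1.08 in bins of neither. The maternal group had 1.07 and 0.890. Without Kdm5b these means were 1.24 and 0.734 in paternal and 1.17 and 0.730 in maternal pronuclei. The median gene read 1.07 in paternal pronuclei with wild-type Kdm5b. How much of the paternal level there is lamina contact was not tested.

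**Figure D1:**
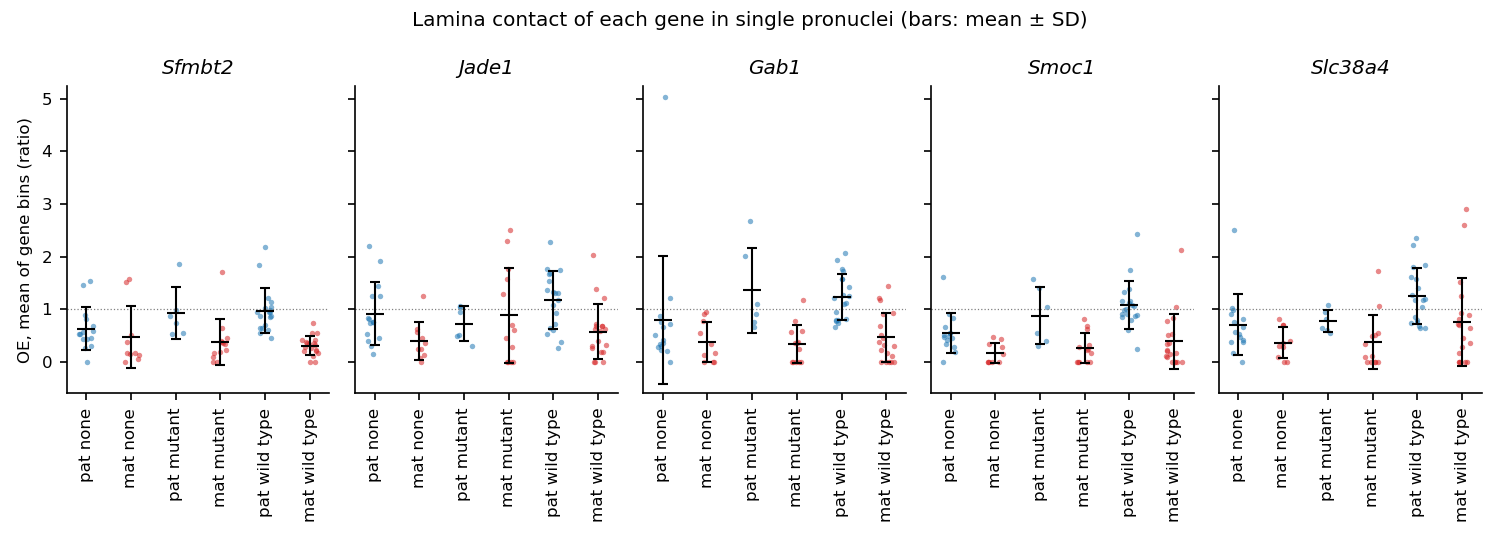
OE ratio (y axis, mean of the gene bins) of each gene in single paternal (blue) and maternal (red) pronuclei without Kdm5b, with mutant and with wild-type Kdm5b (x axis). Points are pronuclei, bars are mean ± SD, the dotted line marks an OE of 1. With wild-type Kdm5b the maternal values of Sfmbt2 end at 0.732 and the paternal ones begin at 0.454.

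Sfmbt2 encodes a Polycomb-group protein with MBT repeats that is needed in the trophoblast. Without Kdm5b its OE in the paternal pronuclei had a lowest value of 0, a median of 0.533 and a highest value of 1.54, and in the maternal ones 0, 0.166 and 1.58. With mutant Kdm5b these values were 0.529, 0.807 and 1.86 in paternal and 0, 0.335 and 1.71 in maternal pronuclei. With wild-type Kdm5b they were 0.454, 0.946 and 2.18 in paternal and 0, 0.312 and 0.732 in maternal pronuclei. The groups overlapped in each condition. With wild-type Kdm5b 19 of 19 paternal pronuclei lay above the maternal median and 0 of 19 maternal pronuclei above the paternal median. The mean OE there was 0.971 ± 0.423 (SD, n = 19) against 0.305 ± 0.185 (n = 19), a log2 difference of 1.15 (SE 0.234, limma adjusted p = 0.000513). Without Kdm5b the difference was 0.51 (SE 0.368, limma adjusted p = 0.594) and with mutant Kdm5b 1.03 (SE 0.481, limma adjusted p = 0.387). The start bin of Sfmbt2 read 1.02 in paternal and 0.173 in maternal pronuclei with wild-type Kdm5b, 0.701 and 0.196 with mutant, and 0.412 and 0.242 without. The maternal means rest on few cells with reads, as 13 of 19, 9 of 13 and 8 of 10 pronuclei were at 0. Without the highest pronucleus they were 0.107, 0.0951 and 0.0663.

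Jade1 encodes a PHD-finger subunit of the HBO1 histone acetyltransferase complex. Its paternal OE without Kdm5b ran from 0.140 over a median of 0.754 to 2.19, and the maternal OE from 0 over 0.298 to 1.26. With the mutant it ran from 0.293 over 0.731 to 1.05 in paternal and from 0 over 0.605 to 2.51 in maternal pronuclei. With wild-type Kdm5b it ran from 0.266 over 1.30 to 2.29 and from 0 over 0.585 to 2.03. The groups overlapped in each condition, and in the mutant the highest values of Jade1 were maternal. The wild-type means were 1.17 ± 0.548 in paternal and 0.570 ± 0.518 in maternal pronuclei (SD, n = 19 each), with a log2 difference of 0.93 (SE 0.273, limma adjusted p = 0.0154), and 16 of 19 paternal pronuclei lay above the maternal median. The difference was 0.87 without Kdm5b (SE 0.355, limma adjusted p = 0.261). In the mutant it was 0.23 (SE 0.549, limma adjusted p = 0.915), while the mean OE was 0.724 in paternal and 0.882 in maternal pronuclei, so the sign depended on the scale. The Jade1 start bin read 1.42 against 0.291 with wild-type Kdm5b, 0.622 against 0.665 with the mutant and 1.07 against 0.270 without Kdm5b.

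Gab1 encodes a docking protein that links receptor tyrosine kinases to downstream signalling and is needed for placental growth. Without Kdm5b its paternal OE had a lowest value of 0, a median of 0.404 and a highest value of 5.04, and the maternal OE 0, 0.248 and 0.95. With the mutant the values were 0.658, 1.01 and 2.69 in paternal and 0, 0.349 and 1.17 in maternal pronuclei. With wild-type Kdm5b they were 0.668, 1.21 and 2.06 in paternal and 0, 0.312 and 1.44 in maternal pronuclei. The ranges overlapped, and without Kdm5b a single paternal pronucleus at 5.04 lay far above the rest of its group. With wild-type Kdm5b 19 of 19 paternal pronuclei exceeded the maternal median. The wild-type means of Gab1 were 1.24 ± 0.436 and 0.463 ± 0.465 (SD, n = 19 each), a log2 difference of 1.30 (SE 0.269, limma adjusted p = 0.000629). The mutant gave 1.56 (SE 0.496, limma adjusted p = 0.187), with 6 of 6 paternal pronuclei above the maternal median, and the pronuclei without Kdm5b gave 0.55 (SE 0.394, limma adjusted p = 0.587). The Gab1 start bin read 1.16 against 0.320 with wild-type Kdm5b, 1.42 against 0.338 with mutant and 1.09 against 0.135 without. Without Kdm5b the same kind of single high value, 8.65 against a median of 0.434, set the paternal start-bin mean, which was 0.548 without it, and the gene-bin mean fell from 0.791 to 0.487 without the pronucleus at 5.04. The maternal start-bin mean was 0.0743 without its highest pronucleus.

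Smoc1 encodes a secreted calcium-binding matricellular protein. Its paternal OE without Kdm5b ran from 0 over a median of 0.485 to 1.62 and the maternal OE from 0 over 0.069 to 0.478, with 5 of 10 maternal pronuclei at 0. With the mutant the range was 0.290 over 0.797 to 1.58 in paternal and 0 over 0.220 to 0.821 in maternal pronuclei. With wild-type Kdm5b it was 0.243 over 1.00 to 2.43 and 0 over 0.207 to 2.12. Smoc1 had the lowest maternal mean of the 5 genes without Kdm5b and with the mutant, and the groups overlapped in each condition. The wild-type means were 1.08 ± 0.449 and 0.391 ± 0.521 (SD, n = 19 each), a log2 difference of 1.30 (SE 0.276, limma adjusted p = 0.000817), with 19 of 19 paternal pronuclei above the maternal median. Without Kdm5b the difference was 0.95 (SE 0.350, limma adjusted p = 0.208), and 0 of 10 maternal pronuclei exceeded the paternal median. With the mutant it was 1.20 (SE 0.485, limma adjusted p = 0.301). A start bin is not given for Smoc1, whose strand is not in the tables used here.

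Slc38a4 encodes an amino acid transporter of the system A family that is highly expressed in placenta. Without Kdm5b the paternal OE had a lowest value of 0, a median of 0.559 and a highest value of 2.51, and the maternal OE 0, 0.323 and 0.810. With mutant Kdm5b these were 0.545, 0.732 and 1.07 in paternal and 0, 0.115 and 1.72 in maternal pronuclei. With wild-type Kdm5b they were 0.635, 1.17 and 2.35 in paternal and 0, 0.635 and 2.91 in maternal pronuclei. The wild-type maternal group of Slc38a4 was the widest of the 5 genes, and its top value lay above the paternal top. The means were 1.25 ± 0.532 and 0.748 ± 0.836 (SD, n = 19 each), a log2 difference of 0.95 (SE 0.295, limma adjusted p = 0.0227), with 19 of 19 paternal pronuclei above the maternal median. On the linear scale a permutation test of the mean OE gave an adjusted p of 0.166, so this was the 1 of the 5 genes not called by both tests. The difference was 0.60 without Kdm5b (SE 0.359, limma adjusted p = 0.482) and 1.05 with mutant (SE 0.500, limma adjusted p = 0.395). The Slc38a4 start bin read 1.04 against 0.686 with wild-type Kdm5b, 0.834 against 0.536 with mutant (0.295 without the highest maternal pronucleus) and 0.868 against 0.333 without Kdm5b. Tested alone over all start bins, the wild-type start bin of Slc38a4 differed by 0.95 (limma adjusted p = 0.0562) and was not called.

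The wild-type result depended on depth and scaling in part. With every pronucleus thinned to 32491 reads, Gab1 (1.23, limma adjusted p = 0.0298) and Sfmbt2 (1.11, limma adjusted p = 0.0351) were still called. Slc38a4 (1.08, adjusted p = 0.0711 by limma), Smoc1 (0.96, 0.113) and Jade1 (0.73, 0.240) were not, and 784 of all genes were higher and 42 lower. Among the pronuclei of at least 100000 reads, 10 paternal and 6 maternal, Sfmbt2 (1.12, limma adjusted p = 0.0446) and Smoc1 (1.43, limma adjusted p = 0.0103) were called, with 674 of all genes higher and 46 lower. With all pronuclei at full depth 2645 of all genes were higher and 113 lower. With each pronucleus centred on its own mean log2 value, the median of all genes moved from 0.27 to -0.02, the split became 832 higher and 581 lower, and Gab1 (1.00), Sfmbt2 (0.85) and Smoc1 (1.01) were called. Slc38a4 (0.66) and Jade1 (0.64) kept the direction under that centring and were not called.

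Along the loci, the OE of the maternal pronucleus was low over the gene and in part of the flanks. With wild-type Kdm5b 31 of 61 member bins were called higher in the paternal pronucleus, against 14.4% of all bins tested, and 1 was called lower, against 1.21%. Of the 11 gene bins 10 were higher, and of the 50 flanking bins 21 were higher. By gene, 9 of 13 bins were higher at Sfmbt2, 8 of 12 at Slc38a4, 7 of 12 at Gab1, 4 of 12 at Jade1 and 3 of 12 at Smoc1. In bins of neither LAD list 23 of 41 member bins were higher, against 19.1% of all such bins. A permutation test of the mean OE called 24 member bins higher and 1 lower, with 2296 and 394 of all 23974 bins. At equal reads 10 member bins were higher and 0 lower, with 879 and 132 of all 23855 bins.

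**Figure D2:**
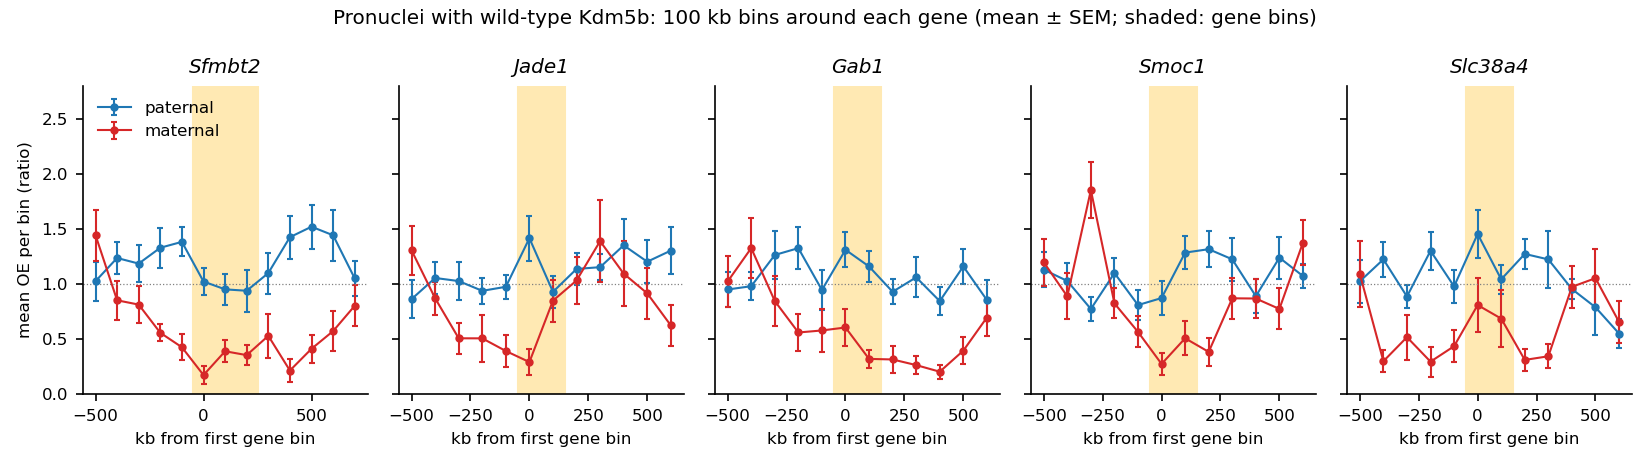
Mean OE ratio (y axis) of the 100 kb bins around each gene, by distance in kb from the first gene bin (x axis), in paternal (blue) and maternal (red) pronuclei with wild-type Kdm5b (n = 19 each). Points are means, bars are the standard error of the mean, shading marks the gene bins. Paternal bin means run from 0.550 to 1.52, while the maternal mean of the Sfmbt2 start bin is 0.173 and that of the flanking bin before Smoc1 is 1.85.

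The largest difference with wild-type Kdm5b lay in the Sfmbt2 flank at chr2:10700001-10800000, with an OE of 1.43 ± 0.852 in paternal and 0.214 ± 0.448 in maternal pronuclei (SD, n = 19 each). There 14 of 19 maternal pronuclei were at 0 and 18 of 19 paternal pronuclei lay above the maternal median, with a log2 difference of 2.02 (SE 0.344, limma adjusted p = 1.09e-05). The start bin of Jade1, chr3:41500001-41600000, differed by 1.81 (SE 0.342, limma adjusted p = 5.85e-05), and 11 of 19 maternal pronuclei had no read there. The start bin of Sfmbt2, chr2:10300001-10400000, differed by 1.67 (SE 0.341, limma adjusted p = 0.000174), with 1.02 ± 0.536 in paternal and 0.173 ± 0.346 in maternal pronuclei. Both start bins lie in neither LAD list of the blastocyst. Slc38a4 had its largest differences in the flanks, at chr15:96700001-96800000 (1.30 against 0.295, log2 difference 1.76, limma adjusted p = 0.000117) and chr15:97100001-97200000 (1.27 against 0.310, log2 difference 1.64, limma adjusted p = 0.000218). The single bin higher in the maternal pronucleus lay before Smoc1 at chr12:80700001-80800000, with 0.773 ± 0.479 in paternal and 1.85 ± 1.12 in maternal pronuclei, a log2 difference of -0.90 (SE 0.319, limma adjusted p = 0.0373). This 1 bin of 61 is near the 1.21% of all bins, and it was not called by limma with pseudocount 0.1, with all 6 groups in 1 fit or at equal reads.

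Without Kdm5b 3 of 61 member bins were called higher in the paternal pronucleus (1.81% of all bins), all in flanks and none in the 41 bins of neither LAD list (0.717% of all such bins). A pair of neighbouring bins lay in the Gab1 flank, inside LADs of both lists. At chr8:81200001-81300000 the OE was 1.84 in paternal and 0.379 in maternal pronuclei (log2 difference 1.98, limma adjusted p = 0.0141), and at chr8:81300001-81400000 1.95 and 0.206 (2.23, limma adjusted p = 0.00728). The third was in the Jade1 flank, a TE LAD at chr3:42000001-42100000, with 1.74 and 0.326 (1.76, limma adjusted p = 0.0296). Unadjusted, limma had 18 of 61 bins at p below 0.05 (16.3% of all bins). The permutation test called 0 member bins, but also 0 of all 23972 bins. At equal reads limma called 0 member bins, with 4 higher and 4 lower of all 23851 bins. Among pronuclei of at least 100000 reads it called 0 member bins, with 10 higher and 3 lower of all 23966 bins. With so few calls over all bins, these 0 counts are not particular to the members.

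With mutant Kdm5b 4 of 61 member bins were called higher (0.814% of all bins), and 2 of the 41 bins in neither LAD list (0.575%). They were the Gab1 flank bins chr8:80500001-80600000 (1.27 in paternal against 0.0996 in maternal pronuclei, log2 difference 2.20, limma adjusted p = 0.0190) and chr8:81300001-81400000 (2.13 against 0.303, log2 difference 2.22, limma adjusted p = 0.0444). The other ones were the Slc38a4 flank bin chr15:97100001-97200000 (1.09 against 0.131, log2 difference 1.96, limma adjusted p = 0.0433) and the Jade1 flank bin chr3:41400001-41500000 (1.58 against 0.113, log2 difference 2.49, limma adjusted p = 0.0126). The exact permutation test called 4 member bins higher, beside 248 of all 23942 bins. Limma called 0 member bins at equal reads, among pronuclei of at least 100000 reads and with bins above 0 in at least 50% of cells. It also called 0 with a depth covariate, with centring and with the replicate block. In the same order these fits called 13, 0, 9, 13, 0 and 2 of all bins higher. The last Gab1 flank bin was called without Kdm5b and with the mutant, and the Slc38a4 bin with the mutant and with wild-type Kdm5b.

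Whether the parental difference was larger at the gene than in its own flanks was tested on the log2 ratio of gene bins to the 10 flanking bins, a measure added after the data had been seen. With wild-type Kdm5b Smoc1 was the only member called, with a difference of 1.14 (SE 0.257, limma adjusted p = 0.00974), where 1.94% of all genes were called higher. It was 0.68 at equal reads (limma adjusted p = 0.472) and was not called. The Smoc1 flanks in this ratio include chr12:80700001-80800000, with 0.773 in paternal and 1.85 in maternal pronuclei with wild-type Kdm5b. How much that bin adds to the Smoc1 difference was not tested. In the other conditions no member was called and neither was any other gene in that direction (0% without Kdm5b and 0% with the mutant). The Smoc1 values there were 0.88 (limma adjusted p = 0.420) and 1.18 (limma adjusted p = 0.773).

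The effect of Kdm5b itself was compared within each pronucleus, wild type against mutant, and 0 of 5 genes changed in the paternal pronuclei (0.376% of all genes) or in the maternal ones (0.132%). The paternal log2 differences were 0.50 for Jade1 (95% interval -0.11 to 1.12), 0.49 for Slc38a4 (-0.03 to 1.01), 0.31 for Smoc1 (-0.27 to 0.90), 0.08 for Sfmbt2 (-0.48 to 0.63) and -0.03 for Gab1 (-0.55 to 0.48). The maternal ones were 0.59 for Slc38a4 (-0.21 to 1.40), 0.23 for Gab1 (-0.50 to 0.95), 0.21 for Smoc1 (-0.49 to 0.91), -0.04 for Sfmbt2 (-0.67 to 0.59) and -0.20 for Jade1 (-1.0 to 0.59). All of these intervals include 0, and they leave room for changes in either direction. Limma had 0 of 5 genes at an unadjusted p below 0.05 in the paternal (17.4% of all genes) and in the maternal pronuclei (14.3%). The permutation test called 0 of 5 genes in both. Among all genes it called 4 higher and 8 lower in the paternal and 0 in the maternal pronuclei. Of the member bins 0 of 61 were called in the paternal (0.0167% of all bins) and 0 in the maternal pronuclei (0%). Permutation called 0 member bins and 0 of all bins in both pronuclei. At an unadjusted p below 0.05 there were 9 of 61 in the paternal (13.9% of all bins) and 5 of 61 in the maternal pronuclei (9.35% of all bins), which is near the background.

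Tests of the differences between conditions gave no call among the members. For the Kdm5b effect compared between pronuclei 0 of 5 genes (0% of all genes) and 0 of 61 bins (0.00417% of all bins) were called by limma, with 0 genes and 6 bins at an unadjusted p below 0.05 (5.19% of all genes and 6.03% of all bins). The gene values ran from -0.26 (Gab1) to 0.71 (Jade1). For the parental difference with wild-type Kdm5b set against that without Kdm5b, 0 of 5 genes (0.0195%) and 0 of 61 bins (0.0167%) were called by limma, with 0 genes and 7 bins unadjusted (10.1% of all genes and 10.0% of all bins). These values ran from 0.07 (Jade1) to 0.74 (Gab1), and the one of Sfmbt2 was 0.65. No other tool was run for these tests. So the calls with wild-type Kdm5b are not shown to differ from the 0 calls in the other conditions.

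**Figure D3:**
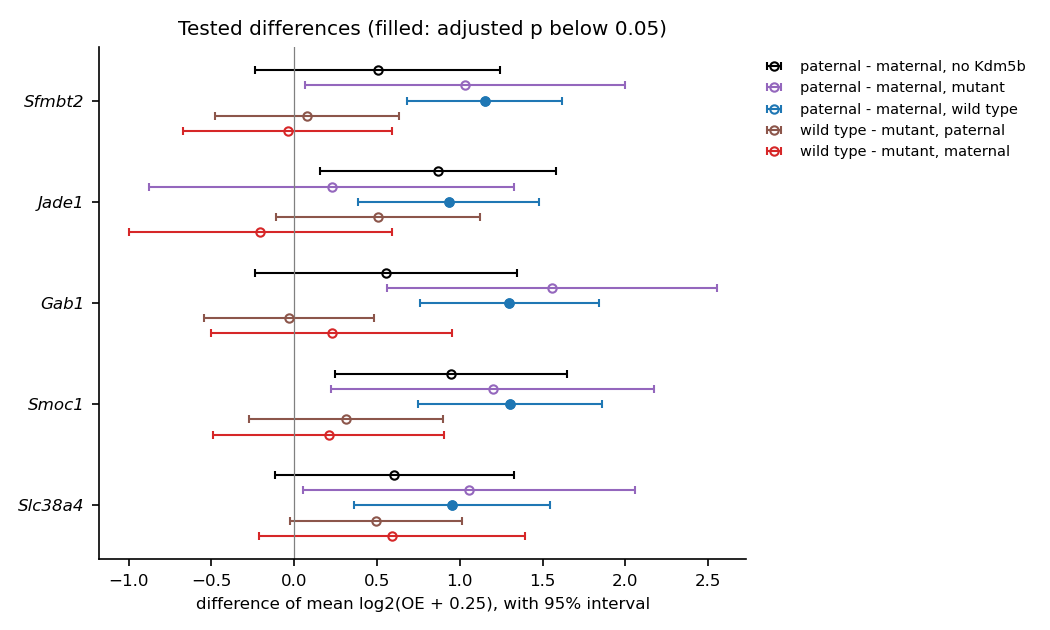
Difference of mean log2(OE + 0.25) (x axis) with its 95% interval for each gene (y axis) in 5 comparisons. Filled points have an adjusted p below 0.05 by limma. Only the paternal minus maternal differences with wild-type Kdm5b are filled, at 0.93 to 1.30.

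In whole zygotes wild-type Kdm5b was also set against the mutant. None of the 5 genes was called (4.39% of all genes were higher with wild type), and 0 of 61 bins (0% of all bins). Sfmbt2 had the largest difference, 0.690 ± 0.306 (SD, n = 14) with wild type and 0.364 ± 0.314 (n = 9) with mutant, a log2 difference of 0.70 (SE 0.331, limma adjusted p = 0.152). It was the 1 of 5 genes at an unadjusted p below 0.05 by limma, where 29% of all genes were. Of the bins 8 of 61 passed unadjusted, against 17.1% of all bins. The exact permutation test called 0 member genes and 0 member bins, and also 0 of all genes and 0 of all bins.

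Among all genes, 4 of the 5 members ranked in the lowest 10% in the oocyte, and in the maternal pronucleus the ranks depended on the gene and the condition. In oocytes with Dam-lamin B1 the share of genes with a lower mean OE was 1.17% for Sfmbt2, 1.42% for Smoc1, 1.77% for Slc38a4, 2.43% for Gab1 and 17.3% for Jade1. In maternal pronuclei with wild-type Kdm5b it was 2.54% for Sfmbt2, 4.25% for Smoc1, 6.51% for Gab1, 11.3% for Jade1 and 24.9% for Slc38a4. With mutant Kdm5b the maternal shares were 3.11% for Smoc1, 6.80% for Gab1, 8.88% for Slc38a4 and 9.32% for Sfmbt2, but 61.4% for Jade1, above its paternal share of 31.1%. Without Kdm5b they ran from 1.18% for Smoc1 to 17.0% for Sfmbt2. In the paternal pronuclei with wild-type Kdm5b it was 32% for Sfmbt2, 52.4% for Smoc1, 70.1% for Jade1, 79.4% for Gab1 and 81.2% for Slc38a4. In oocytes with Dam alone the members ranked low as well, from 8.36% for Smoc1 to 15.6% for Slc38a4. How much of the low oocyte rank with Dam-lamin B1 goes with the low rank with Dam was not tested. In oocytes with Dam-lamin B1 the mean OE was 0.860 over all bins of both LAD lists and 0.970 over bins of neither. How far the oocyte ranks reflect lamina contact was not tested.

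**Figure D4:**
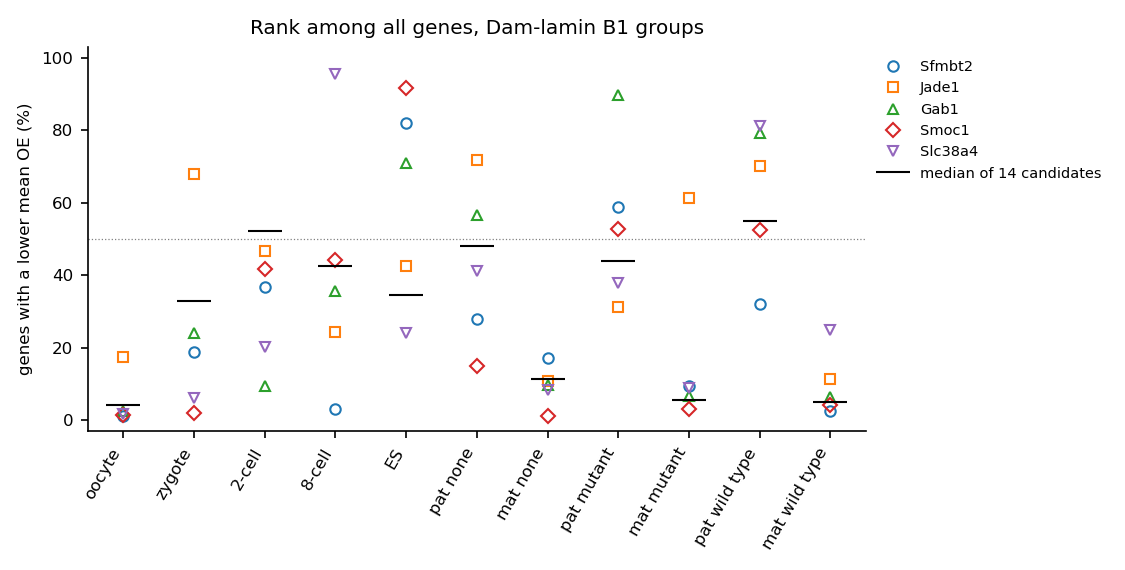
Share of all protein-coding genes with a lower mean OE (y axis, %) for each member in 11 groups with Dam-lamin B1 (x axis). Black lines mark the median of 14 further candidate genes, and the dotted line marks 50%. In oocytes 4 of the 5 members lie between 1.17% and 2.43%, and Slc38a4 reaches 95.5% in 8-cell embryos.

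Sfmbt2 had its lowest Dam-lamin B1 level in oocytes, with a median OE of 0.080, a range of 0 to 1.29 and 27 of 56 oocytes at 0. Its median was 0.456 in zygotes (0.160 to 1.40), 0.487 in 2-cell embryos (0 to 1.84), 0.206 in 8-cell embryos (0 to 1.33) and 1.08 in ES cells (0.358 to 2.10). The order of the means was ES cells (1.1 ± 0.589), 2-cell embryos (0.603 ± 0.487), zygotes (0.600 ± 0.374), 8-cell embryos (0.288 ± 0.337) and oocytes (0.193 ± 0.314). Neighbours in that order differed by no more than the larger SD of the pair. The start bin followed 0.125 in oocytes, 0.412, 0.699 and 0.092 from zygotes to 8-cell embryos, and 0.507 in ES cells. With Dam alone Sfmbt2 had a mean of 0.715 ± 0.305 in oocytes, 0.990 ± 0.464 in zygotes and 0.691 ± 0.311 in 2-cell embryos, and the 4 cells of 8-cell embryos read 0.621, 1.46, 1.21 and 0.331.

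The stage means of Jade1 spanned the least of the 5 genes. Its median with Dam-lamin B1 was 0.617 in oocytes (0 to 3.62), 0.984 in zygotes (0 to 2.37), 0.540 in 2-cell embryos (0 to 3.15), 0.372 in 8-cell embryos (0 to 1.95) and 0.701 in ES cells (0 to 1.16). The means were 0.964 ± 0.621 in zygotes, 0.683 ± 0.597 in 2-cell embryos, 0.672 ± 0.361 in ES cells, 0.652 ± 0.694 in oocytes and 0.574 ± 0.475 in 8-cell embryos, and no pair differed by more than its larger SD. The start bin of Jade1 read 0.372 in oocytes, 0.867 in zygotes, 0.425 in 2-cell embryos, 0.520 in 8-cell embryos and 0.618 in ES cells. With Dam alone the means were 0.852 ± 0.354, 1.18 ± 0.642 and 1.00 ± 0.581 in oocytes, zygotes and 2-cell embryos, and the cells of 8-cell embryos read 1.20, 1.63, 0.740 and 0.744.

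Gab1 was at 0 in 28 of 56 oocytes with Dam-lamin B1, and 0 of 56 oocytes reached an OE of 1 (exact Clopper-Pearson upper bound 6.38%, as for all such intervals here covering counting error only). Its median was 0.066 in oocytes (0 to 0.857), 0.680 in zygotes (0 to 1.45), 0.337 in 2-cell embryos (0 to 1.26), 0.684 in 8-cell embryos (0 to 1.97) and 0.847 in ES cells (0.357 to 2.21). The means were 0.913 ± 0.558 in ES cells, 0.678 ± 0.520 in 8-cell embryos, 0.645 ± 0.546 in zygotes, 0.367 ± 0.383 in 2-cell embryos and 0.249 ± 0.300 in oocytes. Neighbours in this order differed by less than the larger SD of the pair. The start bin of Gab1 was lowest in oocytes, at 0.139, and read 0.890, 0.478 and 0.590 from zygotes to 8-cell embryos and 1.02 in ES cells. With Dam alone the means were 0.802 ± 0.312 in oocytes, 1.01 ± 0.664 in zygotes and 1.1 ± 0.680 in 2-cell embryos, and the cells of 8-cell embryos read 2.96, 1.58, 1.32 and 1.75.

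Smoc1 was at 0 in 31 of 56 oocytes with Dam-lamin B1, the most of the 5 genes, and its gene bins held a median of 0 reads there. Its Dam-lamin B1 median was 0 in oocytes (0 to 1.55), 0.346 in zygotes (0 to 0.975), 0.460 in 2-cell embryos (0 to 3.05), 0.588 in 8-cell embryos (0 to 3.40) and 1.30 in ES cells (0.825 to 1.97). The means were 1.36 ± 0.377 in ES cells, 0.754 ± 0.829 in 8-cell embryos, 0.644 ± 0.650 in 2-cell embryos, 0.324 ± 0.316 in zygotes and 0.204 ± 0.324 in oocytes. The lowest ES cell lay above the medians of all the other stages, and neighbours in the order of the means differed by less than the larger SD of the pair. Contact was read in 9 of 10 ES cells (90.0%, exact interval 55.5% to 99.7%) and in 0 of 19 zygotes (upper bound 17.6%). With Dam alone the means were 0.703 ± 0.377 in oocytes, 1.01 ± 0.598 in zygotes and 1.1 ± 0.681 in 2-cell embryos, and the cells of 8-cell embryos read 1.83, 1.52, 2.48 and 0.167.

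Slc38a4 stood high in 8-cell embryos. With Dam-lamin B1 its median was 0.136 in oocytes (0 to 1.49), 0.377 in zygotes (0 to 1.30), 0.353 in 2-cell embryos (0 to 1.64), 1.92 in 8-cell embryos (0 to 5.61) and 0.571 in ES cells (0 to 1.11). Contact was read in 35 of 41 cells of 8-cell embryos (85.4%, exact interval 70.8% to 94.4%), against 4 of 47 cells of 2-cell embryos (8.51%, 2.37% to 20.4%) and 1 of 10 ES cells (10.0%, 0.253% to 44.5%). The groups overlapped, as 3 of 41 cells of 8-cell embryos were at 0. The means were 1.95 ± 1.15 in 8-cell embryos, 0.562 ± 0.332 in ES cells, 0.475 ± 0.423 in 2-cell embryos, 0.452 ± 0.398 in zygotes and 0.220 ± 0.288 in oocytes, and below the 8-cell embryos neighbours differed by less than the larger SD of the pair. The start bin of Slc38a4 with Dam-lamin B1 read 1.85 in 8-cell embryos and 0.326 to 0.630 at the other stages. In 8-cell embryos with Dam alone the start bin read 2.54 ± 2.02 (SD, n = 4). Over the gene bins the cells of 8-cell embryos with Dam alone read 0.470, 3.24, 1.33 and 1.05. The gene-bin means with Dam alone were 0.866 ± 0.366 in oocytes, 1.03 ± 0.599 in zygotes and 1.07 ± 0.602 in 2-cell embryos. Cells of 1 embryo are not told apart in the labels, the mRNA dose was highest at this stage, and with 4 control cells the part of accessibility in the high value was not tested.

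**Figure D5:**
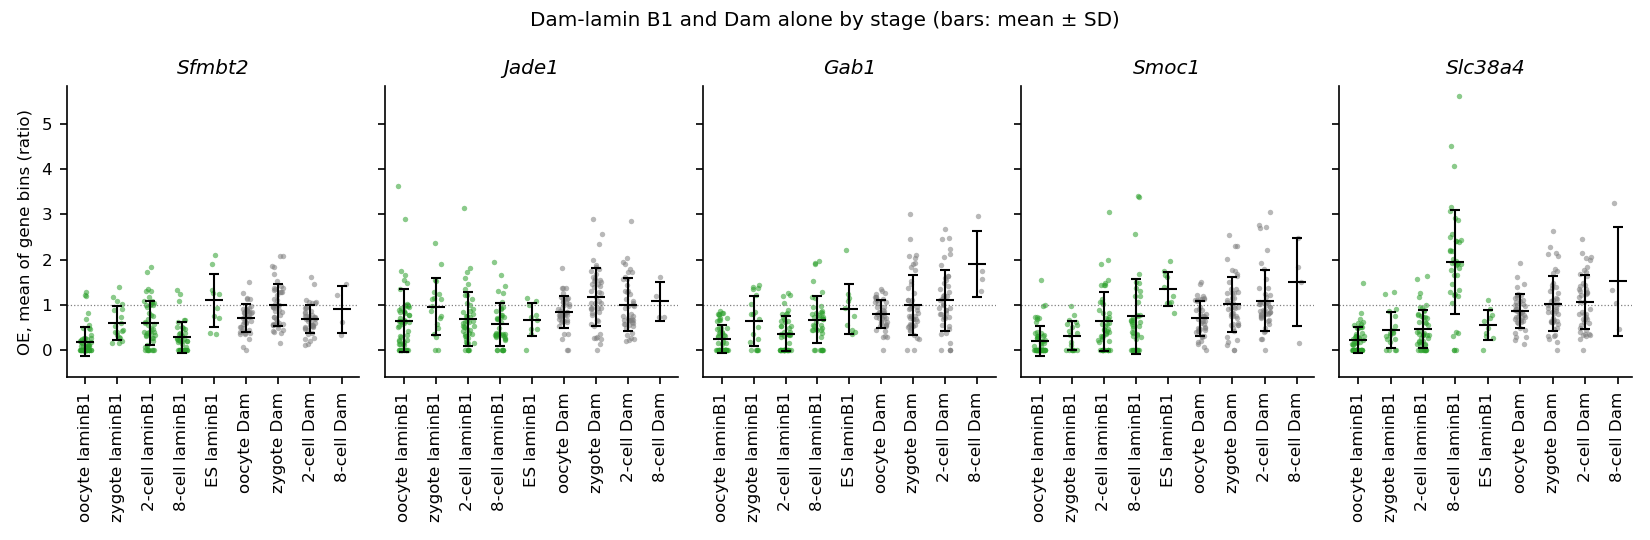
OE ratio (y axis, mean of the gene bins) of each gene in single cells with Dam-lamin B1 (green) and with Dam alone (grey) by stage (x axis). Points are cells, bars are mean ± SD, the dotted line marks an OE of 1. Slc38a4 has a median of 1.92 in 8-cell embryos with Dam-lamin B1 and 0.136 in oocytes.

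Dam-lamin B1 was tested against Dam alone in zygotes. The OE of Slc38a4 was 0.452 ± 0.398 in the 19 zygotes with the fusion and 1.03 ± 0.599 (SD) in the 46 with Dam, a log2 difference of -0.93 (SE 0.219, limma adjusted p = 0.000200). Smoc1 read 0.324 ± 0.316 and 1.01 ± 0.598, a difference of -1.18 (SE 0.232, limma adjusted p = 1.54e-05). Sfmbt2 differed by -0.57 (SE 0.181, limma adjusted p = 0.00419), Gab1 by -0.62 (SE 0.245, limma adjusted p = 0.0194) and Jade1 by -0.29 (SE 0.228, limma adjusted p = 0.236). So 4 of 5 genes were lower with Dam-lamin B1, but 66.0% of all genes were. Centring each cell on its mean log2 value left only Smoc1 called (-0.58, limma adjusted p = 0.0489) and turned Sfmbt2 to 0.03 and Jade1 to 0.31. That centring moved the median of all genes from -0.75 to -0.15 and the split from 1583 higher and 13521 lower to 3088 and 2994. Only 2 of the 19 zygotes with Dam-lamin B1 held at least 100000 reads.

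By bins 34 of 61 member bins were lower with Dam-lamin B1 than with Dam (37.8% of all bins) and 3 were higher (22.0%). The higher bins lay in LADs: chr3:41800001-41900000 (1.54 against 0.487, log2 difference 0.98, limma adjusted p = 0.00325) and chr3:41700001-41800000 (1.34 against 0.566, 0.72, limma adjusted p = 0.0359) after Jade1, and chr8:81300001-81400000 (1.03 against 0.383, 0.86, limma adjusted p = 0.0107) at the end of the Gab1 locus. The bins with the largest falls were chr12:80600001-80700000 near Smoc1 (-1.38, limma adjusted p = 1.20e-05), chr12:81000001-81100000, a gene bin of Smoc1 (-1.31, 0.000110), chr3:41000001-41100000 at Jade1 (-1.27, 5.89e-05), chr12:81600001-81700000 near Smoc1 (-1.24, 6.51e-05) and chr2:9900001-10000000 at Sfmbt2 (-1.20, 0.000118). All 5 lie in neither LAD list. Over the 41 member bins in neither list 31 were lower and 0 higher, near the background of 74.2% lower and 2.13% higher among all such bins. A permutation test of the mean OE called 3 genes, with 12201 of all genes lower, and 3 higher and 29 lower member bins, with 6573 and 7287 of all bins. At equal reads 2 member bins were higher and 9 lower. With zygotes of at least 100000 reads 0 member genes and 0 member bins were called, but that fit held only 2 zygotes with Dam-lamin B1. Counts over all bins are not given for these fits, so whether the members lost more calls than other bins was not tested.

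Other genes of the same kind were set beside the members, with lists recalled from published work and chosen with earlier results of these data known. Of 14 further candidate genes of maternal H3K27me3 imprinting, 12 were higher in the paternal pronucleus with wild-type Kdm5b by limma. The median log2 difference of the 14 was 1.27. Without Kdm5b (median 0.66) and with the mutant (0.94) 0 were called. In these conditions 0.254% and 0.142% of all genes were called higher, with all-gene medians of 0.10 and 0.33. The largest differences with wild-type Kdm5b were those of Runx1 (1.67), Etv6 (1.66), both transcription factors of blood development, and the ligand gene Bmp7 (1.45). Bbx (0.63, limma adjusted p = 0.0794) and Matn1 (0.04, limma adjusted p = 0.95) were not called. Of 23 genes imprinted by DNA methylation 4 were higher (median 0.62), and of 26 genes of Polycomb complexes 0 (median 0.22), beside the all-gene median of 0.27 and the 12.9% of all genes called. The lists were not tested at equal reads, where all genes called higher fell from 2645 to 784. Slc38a1 of the candidate list is not independent of the members, since both of its gene bins lie in the flanks of Slc38a4. In oocytes with Dam-lamin B1 the median rank of the candidates was 4.10%, with 10 of 14 in the lowest 10% of genes. That of the Polycomb genes was 53.4% and that of the DNA methylation imprints 25.2%. In oocytes with Dam alone the candidates ranked low as well, with a median of 9.17% and 9 of 14 in the lowest 10%. The Polycomb genes had 54.8% there and the DNA methylation imprints 30.9%. How much of the candidates' low rank with Dam-lamin B1 goes with that of Dam was not tested. In maternal pronuclei with wild-type Kdm5b the candidates' median rank was 5.02%, and in paternal ones 54.9%.

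The members did not all follow the same pattern over the 11 group means with Dam-lamin B1. Sfmbt2 and Smoc1 were the most alike (Pearson's r = 0.820), then Gab1 and Sfmbt2 (0.806) and Gab1 and Smoc1 (0.758), and Sfmbt2 and Slc38a4 were the least alike (0.0467). The genes most like each member elsewhere in the genome were Pappa (0.952), Bpifa2 (0.938) and Spdl1 (0.927) for Sfmbt2, and Mcpt1 (0.916), Mal (0.915) and P2ry6 (0.884) for Jade1. For Gab1 they were Sez6l (0.95), Calcrl (0.947) and Fam102a (0.944), for Smoc1 Rgs4 (0.961), Serpina1a (0.937) and Vmn1r45 (0.937), and for Slc38a4 Cdcp3 (0.963), Mark1 (0.962) and Kcna10 (0.948). These are descriptions over 11 means that share libraries and depth, picked as the highest of all genes more than 5 Mb away.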

How the data were processed

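Single-cell DamID values of 416 cells in 17 groups were used. The authors deposited an observed over expected ratio of reads (OE) per cell and autosomal 100 kb bin. Per the submitters' processing notes the build is mm10 and the tools include cutadapt and BWA 0.7.12. The computation of the expected number is not stated there. The table held 512 cells, of which 96 columns were not used here, and 617 of 24639 bins had no value. The deposited LAD lists hold coordinates only.

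Groups come from the labels (556 samples, 15 unassigned). Reads per cell were recovered from the steps of the ratios: within 0.02 reads, 100% of the low values of each cell came out whole. Depths are estimates, and would be a multiple if the smallest step were worth several reads. No pair of cells was identical.

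Differences of log2(OE + 0.25) were tested with limma 3.58.1 in R 4.3.3 (2-sided, Benjamini-Hochberg over all genes or bins, features above 0 in at least 1 cell). Means were also tested by permutation (exact below 10 cells in a group, otherwise 100000 resamples). On simulated bins in 2 groups with the real depths, a 3-fold change was recovered in 56% of changed bins with wild-type Kdm5b, 9% without and 0% with mutant, and a 6-fold change in 96%, 44% and 15%. Replicate numbers in the titles did not pair cells. Named bins are those called, or the 5 largest per direction where over 10 were, and the smallest p in each parental comparison. Most-like genes are the 3 with the highest r. The members and lists were chosen with earlier results of these data known. Alternatives covered pseudocounts 0.1 and 1, filters, equal reads, depth minimums, cell weights, a joint fit, the block, other gene windows and, added after the data had been seen, a 40000-read minimum, a depth covariate, centring and levels without the highest cell.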

Additional observations from a re-analysis of the deposited data

Results flagged for a closer look

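In 25 combinations of gene and group with 4 to 10 cells, 3 had 1 cell far from the rest by Dixon's criterion, each the highest cell. Chance gives about 1 in 20 for normally distributed values. OE has a floor at 0, so that rate need not hold here. Gab1 in ES cells had 1 cell at 2.21, with the next at 1.23. Sfmbt2 in paternal pronuclei with mutant Kdm5b had 1 cell at 1.86, with the next at 0.978. Jade1 in maternal pronuclei without Kdm5b had 1 cell at 1.26, with the next at 0.620.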

How the results depend on the processing

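Counts below are members called in either direction, unless all genes or all bins are named. The cause of each change was not tested. Under the alternatives 195 counts stayed within 1.5 times the reported count and 31 moved. Many of the counts that stayed were 0 under both settings, so the 195 are not a measure of stability. For the parental difference without Kdm5b, genes moved from 0 to 2 with 5 bins added on each side (Gab1, Jade1). All genes called higher went from 52 to 501 there. Member bins moved from 3 to 6 with all 6 pronucleus groups in 1 fit and to 5 with cells of at least 40000 reads. They moved to 0 at equal reads, with cells of at least 100000 reads and by permutation. In the same order all bins called higher went from 434 to 613, 773, 4, 10 and 0. With mutant Kdm5b genes moved from 0 to 1 with cell weights (Gab1) and to 2 with 5 bins added (Gab1, Slc38a4). All genes called higher went from 29 to 302 and 1049. Member bins moved from 4 to 2 with pseudocount 0.1, to 7 with 6 groups in 1 fit and to 13 with cell weights. All bins called higher went from 195 to 87, 680 and 1020. The member bins moved to 0 with values above 0 in at least 50% of cells, at equal reads and with cells of at least 100000 reads. The same held with log2 reads as covariate and with centring. In this order all bins called higher went to 9, 13, 0, 13 and 0. With wild-type Kdm5b genes moved from 5 to 2 at equal reads and with at least 100000 reads. They moved to 3 with centring, and to 3 of 4 by the start bin alone. In the same order all genes called higher went from 2645 to 784, 674, 832 and 1772. Member bins moved from 32 to 10 at equal reads, 13 with at least 100000 reads and 17 with centring. All bins called higher went from 3455 to 879, 1357 and 1402. For zygotes against Dam, genes moved from 4 to 0 with at least 100000 reads and to 1 with centring. Bins moved from 37 to 11 at equal reads, 0 with at least 100000 reads, 18 with at least 40000 reads and 21 with the covariate. The fit with at least 100000 reads held only 2 zygotes with Dam-lamin B1. All-bin counts of these zygote fits are not given here, so a fall particular to the members was not tested.

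With the replicate block, the number in the titles as a block, member bins moved from 4 to 0 with mutant Kdm5b and from 37 to 23 in zygotes against Dam. No other count moved by over 1.5 times. With mutant Kdm5b all bins called higher went from 195 to 2 under the block, and the all-bin count for zygotes is not given here. Cells of the same number did not deviate together: the median correlation without Kdm5b was 0.000705, and 1 of 10, 1 of 6 and 2 of 19 cells without Kdm5b, with mutant and with wild type matched their own number best. The pairing is therefore a shared number only.

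Direction reversed for Jade1 with mutant Kdm5b with cells of at least 100000 reads (-0.24), with centring (-0.11) and in the linear mean (-0.158). In zygotes against Dam it reversed with centring for Sfmbt2 (0.029) and Jade1 (0.31), and for the Jade1 bin starting at 41000001 with at least 100000 reads (0.064). Of the other single values 422 kept direction and side of the threshold, 77 lost and 7 gained a call. With contact set at an OE of at least 2, 67 of the shares of cells in contact fell outside their intervals. No start bin could be computed for Smoc1. Depth limits the maternal values and those of oocytes with Dam-lamin B1, where a gene often holds a few reads.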
